A study of Glycine max with 12 samples.

Results

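The genes described here formed a staircase across soybean roots: lowest without a fungus, higher in roots labelled as highly colonized by Glomus aggregatum, and highest in roots labelled as weakly colonized by the same fungus. A gene met the rule when its mean in Ga-H was at least 2 times its mean in NM, its lowest Ga-H library lay over its highest NM library, its lowest Ga-L library lay over its highest Ga-H library, and its mean in Ga-L was at least 2 FPKM. FPKM is a fragment number set relative to transcript length and to the size of the library. Genes whose NM mean was under 2% of their Ga-L mean were left out, which removed 172 genes and kept 332. The 150 with the highest ratio of mean Ga-L to mean Ga-H were taken, so the genes were chosen by measured values of NM, Ga-H and Ga-L, out of 49551 genes listed in any library. The steps from NM to Ga-H and from Ga-H to Ga-L are therefore the choice itself, and the Ri libraries, from roots with another fungus, took no part in it.

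The 12 libraries were made from total RNA of roots of soybean (Glycine max), 3 in each of 4 groups. NM roots had no fungal inoculum, Ri roots carried Rhizophagus irregularis, and the Ga-H and Ga-L roots carried Glomus aggregatum with high or low colonization. No other treatment, genotype or plant age is named in the labels, and the colonization levels are known here only by name. Totals of expected counts ran from 10182107 to 11054695 per library, and 42973 to 43710 genes had a value over 0. The labels do not tell separate plants from repeated preparations, so p-values rest on the spread between samples of a group and that spread may be technical. In the Ri group, replicate 1 stood apart from the other libraries on these genes, and the main counts that rest on Ri are given with and without it. For single genes and for counts by range this is so only in part.

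Arbuscular mycorrhizal fungi grow within the root cortex and build branched arbuscules inside cortical cells, where the fungus delivers phosphate and nitrogen and receives lipids and sugars. Plant genes that respond to the fungus include transporters at the arbuscule membrane, enzymes of lipid and sugar supply, and secreted or signalling proteins, and many of them are expressed only in colonized cells. The IDs in the files could not be paired with a symbol in the reference table used here, so the genes are described by ID and no role is given to any of them. For the same reason the labelled tissue was not checked against marker genes. IDs are printed without their annotation tag Wm82.a2.v1.

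The 150 genes spanned a wide range of levels. Their group means ran from 0.07 to 74.1 FPKM in NM (median 1.40), from 0.84 to 213 in Ga-H (median 7.45) and from 2.0 to 421 in Ga-L (median 14.3). The first step was the larger: the median ratio of Ga-H to NM was 4.76 (quartiles 2.97 and 10.2), and the median ratio of Ga-L to Ga-H was 1.81 (quartiles 1.68 and 1.98, highest 3.41). On the log2 scale a median of 72.2% of the rise from NM to Ga-L was already reached in Ga-H, with a lowest value of 48.9% and a highest of 87.7%. At the edge of the ranking the ratio of Ga-L to Ga-H was 1.5883 for the last gene taken and 1.5879 for the first gene left out. These values chose the genes and are a description. Roots are mixtures of cells, and more cells of a responding type cannot be told apart from more RNA per cell.

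**Figure D1:**
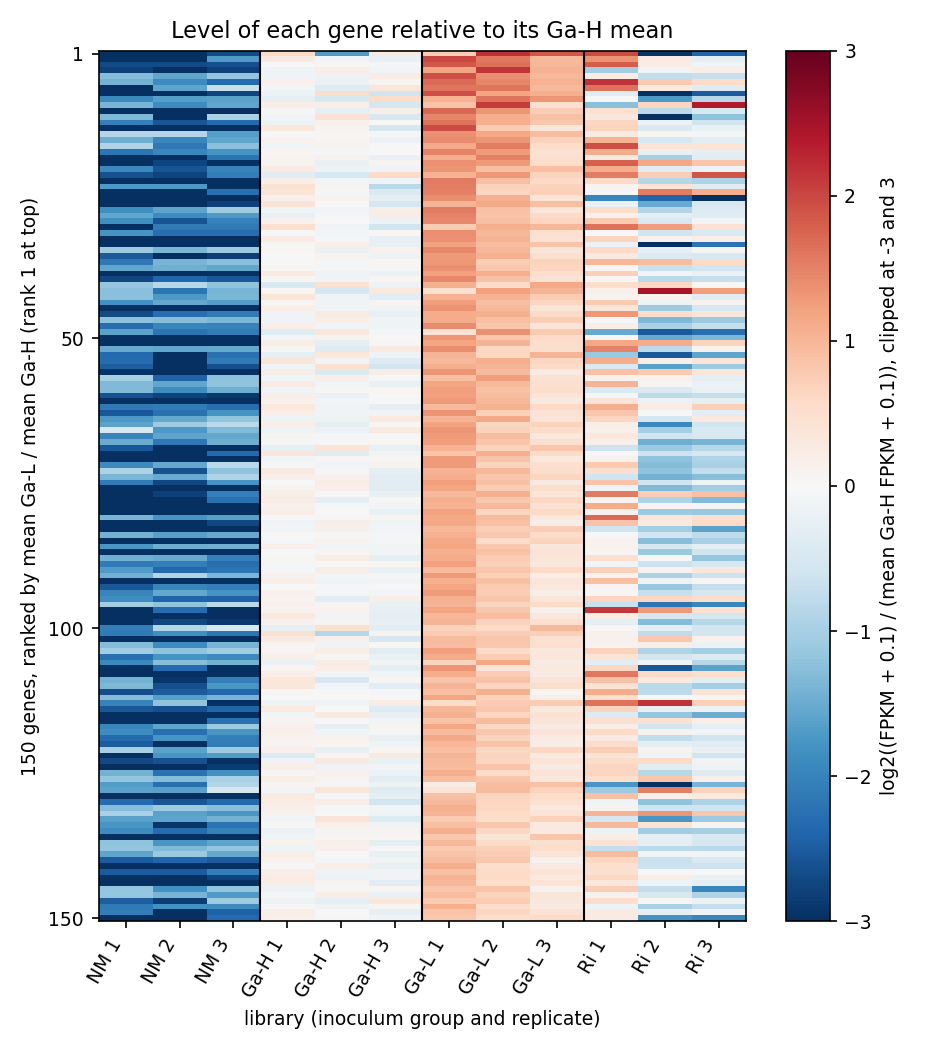
Each row is 1 of the 150 genes, ranked by the ratio of mean Ga-L to mean Ga-H, each column is a library, and colour gives log2 of FPKM + 0.1 relative to the gene's Ga-H mean. The NM, Ga-H and Ga-L blocks show the steps that the rule selects, while the Ri block is uneven, with replicate 1 mostly red and replicates 2 and 3 mostly blue.

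The share of all counts that fell on the 150 genes gives the size of the set in each library. It was 0.118%, 0.105% and 0.129% in NM replicates 1 to 3, 0.542%, 0.501% and 0.478% in Ga-H, and 1.15%, 0.927% and 0.697% in Ga-L. In Ri it was 0.688% in replicate 1 but 0.370% and 0.391% in replicates 2 and 3. Ri replicate 1 thus lay just under the lowest Ga-L library and over every Ga-H library, and the other Ri libraries lay under every Ga-H library and over every NM library.

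The top of the ranking shows how uneven single genes could be. Glyma.06G074100, with the highest ratio of Ga-L to Ga-H, had 0.2, 0.07 and 0.27 FPKM in NM, 3.45, 0.63 and 2.78 in Ga-H, and 3.96, 10.8 and 8.59 in Ga-L. In Ri it had 9.2 FPKM in replicate 1 and 0.21 and 0.35 in replicates 2 and 3. Its Ri libraries therefore covered both ends, replicate 1 among the Ga-L values and the others at the NM values. Against Ga-L its log2 fold change was -1.32 (SE 1.0), with adjusted p = 0.504 in edgeR's quasi-likelihood test, and without Ri replicate 1 it was -4.89 with adjusted p = 0.00261. The gene ranked next, Glyma.05G075700, had 0, 0 and 0.22 FPKM in NM, 1.16, 0.89 and 0.79 in Ga-H, 4.12, 3.01 and 1.95 in Ga-L, and 2.58, 1.14 and 0.77 in Ri. Ri replicate 1 was again the highest of its group, and it fell between the Ga-L libraries, while replicate 2 lay within the Ga-H range and replicate 3 just under it. Its counts were small, from 7 to 10 per Ga-H library and from 17 to 36 per Ga-L library, which limits its precision.

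The most abundant of the genes in Ga-L was Glyma.15G098500. It stood at 72.4, 78 and 71.9 FPKM in NM, at 220, 209 and 209 in Ga-H, and at 551, 379 and 332 in Ga-L. Its Ri libraries stood at 220, 133 and 144 FPKM, so Ri replicate 1 matched the Ga-H libraries and the others lay between NM and Ga-H. It fell in Ri relative to Ga-L by 1.41 on the log2 scale (SE 0.22), from 421 ± 115 to 166 ± 47.6 FPKM (SD, n = 3), with adjusted p = 0.01 in edgeR's quasi-likelihood test. That call was lost in a fit of these groups alone (edgeR adjusted p = 0.101) and also without Ri replicate 3 (edgeR adjusted p = 0.0533), and over all alternatives run its adjusted p ranged from 3.44e-07 to 0.101. Next in abundance was Glyma.01G218000, with a lower level in NM. It had 6.59, 4.27 and 9.61 FPKM there, 164, 127 and 121 in Ga-H, 325, 293 and 197 in Ga-L, and 224, 129 and 119 for the Ri libraries. Ri replicate 1 lay within the Ga-L range, replicate 2 within the Ga-H range and replicate 3 just under it. Its log2 fold change in Ri against Ga-L was -0.85 (SE 0.31) and did not pass (edgeR adjusted p = 0.145), while without Ri replicate 1 it was -1.23 with adjusted p = 0.0136. Against NM, a group that also chose the gene, it was higher in Ri by 4.51 on the log2 scale (SE 0.37, edgeR adjusted p = 2.13e-05).

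**Figure D2:**
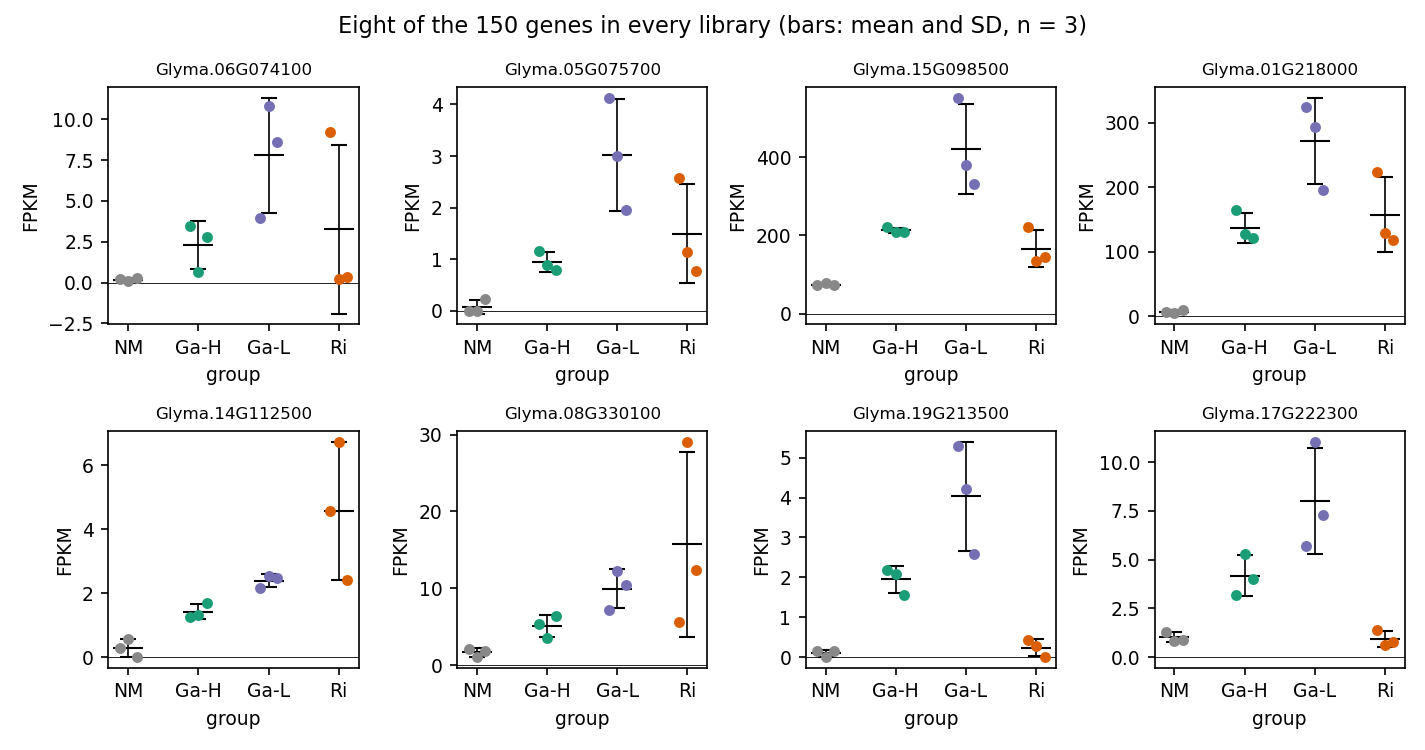
FPKM of 8 of the 150 genes in every library, by group, with points for libraries and bars for the mean and SD of 3 libraries. The upper row holds the genes with the highest Ga-L to Ga-H ratio and the highest Ga-L level, and the lower row those with the highest and the lowest ratio of Ri to Ga-H, where the mean of Ri lies over that of Ga-L on the left and near that of NM on the right, with single Ri libraries inside or under the Ga-L range on the left.

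Taken as group means, Ri fell close to Ga-H. Mean Ri lay under mean Ga-H for 82 of the 150 genes (54.7%), and among all 28378 genes with at least 2 FPKM in Ga-L this share was 47.4%. It lay between the NM and Ga-H means for 79 genes, between the Ga-H and Ga-L means for 56, at or over the Ga-L mean for 12 and under the NM mean for 3. The median ratio of mean Ri to mean Ga-H was 0.959 (quartiles 0.744 and 1.31), and that of mean Ri to mean Ga-L was 0.518 (quartiles 0.394 and 0.721). The mean hid a split within the group. Ri replicate 1 alone lay under the Ga-H mean for 30 genes (20%), against 101 for replicate 2 (67.3%) and 110 for replicate 3 (73.3%). Without replicate 1 the mean lay under Ga-H for 107 genes (71.3%). Among all genes with at least 2 FPKM in Ga-L these shares were 56.9%, 48.7% and 47.0% for replicates 1 to 3, and 46.6% without replicate 1.

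Relative to the Ga-H mean, the median gene stood at 1.32 times in Ri replicate 1, 0.727 times in replicate 2 and 0.765 times in replicate 3. For comparison, the same median was 1.06, 0.994 and 0.935 in the Ga-H libraries, 2.15, 1.80 and 1.41 in the Ga-L libraries, and 0.207, 0.179 and 0.211 in the NM libraries. Measured by the closest group mean on log2(FPKM + 0.1), Ri replicate 1 was closest to Ga-L for 74 genes, to Ga-H for 69 and to NM for 7. Replicate 2 was closest to Ga-L for 23, to Ga-H for 94 and to NM for 33, and replicate 3 for 18, 104 and 28. Ri replicate 1 thus sat between the Ga-H and Ga-L levels, and the other Ri libraries sat somewhat under Ga-H.

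**Figure D3:**
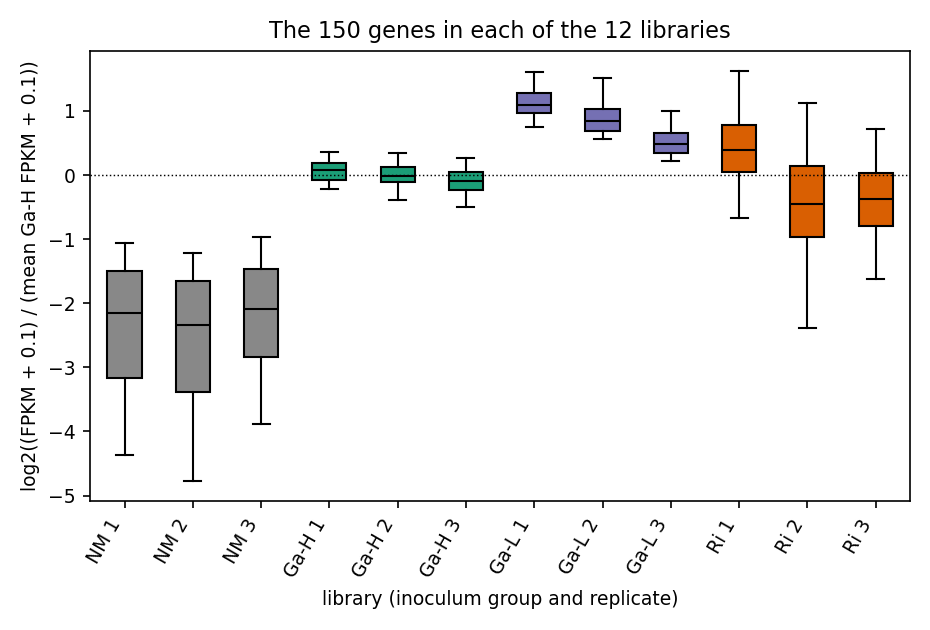
Boxes give the median and quartiles over the 150 genes of log2 of FPKM + 0.1 relative to the Ga-H mean in each library, and whiskers run from the 5th to the 95th percentile. The NM, Ga-H and Ga-L boxes rise in the order the rule selects, Ri replicate 1 lies between Ga-H and Ga-L, and Ri replicates 2 and 3 lie under Ga-H with long lower whiskers.

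Ri replicate 1 was the highest Ri library for 131 of the 150 genes (87.3%). Among all genes with at least 2 FPKM in Ga-L it was the highest for 35.9% and the lowest for 46.4%, while replicates 2 and 3 were the highest for 35.3% and 28.8%. It exceeded both other Ri libraries by at least 2 times for 35 genes (23.3%), against 5.37% of all such genes. Its values were over the highest Ga-H library for 93 of the 150 genes and at or over the lowest Ga-L library for 70. These shares are 62% and 46.7%, against 23.7% and 70.7% of all such genes, whose Ga-L libraries, unlike those of the 150, were not chosen to lie over Ga-H. The median coefficient of variation of the 150 genes was 39.9% for Ri, 28.3% for NM, 14% for Ga-H and 25.2% for Ga-L, against 16.5%, 13%, 12.5% and 13.2% for all genes at that level. A higher spread than in all genes was thus seen in every group, and the rule itself limits the spread of NM, Ga-H and Ga-L. The sets share only the floor in Ga-L: the median of the NM means was 1.40 FPKM for the 150 and 8.29 for all such genes. The part of low level in the spread was not tested. The total count of Ri replicate 1, 10561909, lay between those of the other Ri libraries, 10421709 and 10732768.

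Genes that made both steps but were not among the 150 allow a closer look at which share this pattern. Of the 182 genes that met the rule but had a smaller second step, Ri replicate 1 was over both other Ri libraries for 111 (61.0%). Of the 172 genes that made the same steps but had less than 2% of their Ga-L level in NM, it was so for 150 (87.2%). The median log2 excess of Ri replicate 1 over the mean of the other Ri libraries was 0.85 for the 150 genes, 0.34 for the 182 and 0.96 for the 172, and -0.06 over all genes with at least 2 FPKM in Ga-L. Across genes, the excess correlated with the log2 ratio of Ga-L to Ga-H at r = 0.15 (rho 0.08) for all 28378 genes, r = 0.19 (rho 0.19) for the 150, r = 0.31 (rho 0.41) for the 182 and r = 0.45 (rho 0.46) for the 172. All points share the same libraries, genes are not independent replicates, and these values are a description. The part of colonization level or of any library property in the height of Ri replicate 1 was not tested.

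**Figure D4:**
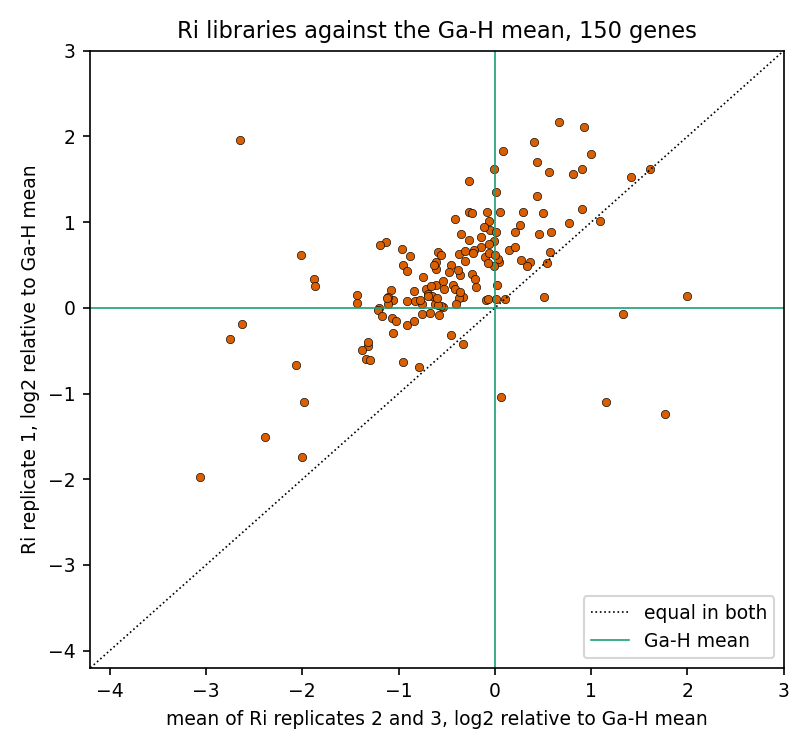
Each point is 1 of the 150 genes, with the mean of Ri replicates 2 and 3 on the x axis and Ri replicate 1 on the y axis, both as log2 relative to the Ga-H mean. Of the 150 points, 140 lie above the dotted line of equal values, and most lie at the upper left of the plot, over Ga-H in replicate 1 and under it in the mean of replicates 2 and 3.

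Tests of Ri against each other group were fitted across 36323 genes with edgeR's quasi-likelihood test and Benjamini-Hochberg adjustment. The filter on low counts removed 1 of the 150 genes and kept the others, over which the counts below are taken. The gene removed was Glyma.11G107400, a gene of 264 bases with 11, 6 and 6 counts in Ga-L and at most 5 in any other library. The NM, Ga-H and Ga-L libraries in these tests also chose the genes, so these counts are no independent support for a difference from those groups. The same holds for the shares by library range given with them, since the genes they are set against were not so chosen.

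Against NM, 123 of the genes tested were higher in Ri (82.6%) and 0 were lower, while 9.08% of all genes tested were called higher and 4.04% lower. The Ri libraries all lay over the highest NM library for 129 of the 150 genes (86%), against 18.6% of all genes with at least 2 FPKM in Ga-L. The median log2 fold change was 2.45, against 0.03 for all genes tested. Without Ri replicate 1 the median was 1.79, with 118 genes higher and 1 lower, against 14.5% and 13.4% of all genes. Most of these genes thus passed against NM also on Ri replicates 2 and 3 alone.

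Against Ga-H, 0 genes of the set were called in either direction by edgeR's quasi-likelihood test, where 0.00826% of all genes were called higher and 0.00826% lower. At an unadjusted p under 0.05, 21 were higher and 19 lower. DESeq2 called 4 higher and 7 lower, where it called 0.254% and 0.281% of all genes. Without Ri replicate 1 the same edgeR test called 5 higher and 30 lower, or 3.36% and 20.1% of those tested, against 2.48% and 3.77% of all genes. The median log2 fold change moved from -0.04 to -0.40. By edgeR's calls alone, a gap under Ga-H for part of the genes was thus seen without Ri replicate 1 and not with it. By ranges, every Ri library lay under the lowest Ga-H library for 15 of the 150 genes and over the highest for 17. These are 10% and 11.3%, against 6.39% and 6.14% of all genes with at least 2 FPKM in Ga-L.

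Against Ga-L, 53 of the genes tested were lower in Ri (35.6%) and 0 higher, against 2.7% and 1.56% of all genes tested (edgeR). The median log2 fold change was -1.0, and 139 were negative. Without Ri replicate 1 110 were lower (73.8%) and 0 higher, against 8.41% and 6.46% of all genes, with a median of -1.41. The count of lower genes was 24 without Ri replicate 2, 12 without Ri replicate 3, 28 without Ga-L replicate 1 and 16 without Ga-L replicate 2, where 0.961%, 0.425%, 1.81% and 0.513% of all genes were called lower. It was 0 in a fit of these groups alone, where 0.023% of all genes were called lower. For 74 of the 150 genes (49.3%) all Ri libraries lay under the lowest Ga-L library, and for 124 (82.7%) Ri replicates 2 and 3 did so, against 9.74% and 18.2% of all genes with at least 2 FPKM in Ga-L. For 0 of the 150 did all Ri libraries lie over the highest Ga-L library, against 14.2% of all such genes.

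A few genes departed from this middle place. Glyma.14G112500 had the highest ratio of Ri to Ga-H, with 4.59, 6.74 and 2.42 FPKM for the Ri libraries, 1.27, 1.33 and 1.68 for Ga-H, 2.15, 2.54 and 2.48 for Ga-L, and 0.28, 0.56 and 0 for NM. All its Ri libraries lay over Ga-H, and 2 of them, replicates 1 and 2, lay over Ga-L. Its mean in Ri was 3.21 times that in Ga-H, a log2 fold change of 1.70 (SE 0.49) that did not pass (adjusted p = 0.344, edgeR). Glyma.08G330100 came next, with 5.65, 29.1 and 12.4 FPKM in Ri against 5.33, 3.58 and 6.43 in Ga-H, and 2.1, 1.04 and 1.88 in NM and 7.22, 12.2 and 10.4 in Ga-L. Here Ri replicate 2 was the high library and replicate 1 lay within the Ga-H range. Ri exceeded Ga-H by 1.59 on the log2 scale (SE 0.49), with adjusted p = 0.38 in edgeR's test, and by 1.97 with adjusted p = 0.0168 without Ri replicate 1.

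At the other end, some genes stepped up with G. aggregatum and stayed near the uncolonized level with R. irregularis. Glyma.19G213500 had 0.14, 0 and 0.14 FPKM in NM, 2.19, 2.09 and 1.56 in Ga-H, 5.3, 4.21 and 2.58 in Ga-L, and 0.42, 0.29 and 0 in Ri. The Ri libraries all lay under the lowest Ga-H library, with at most 3 counts each. Its log2 fold change against Ga-H was -2.95 (SE 0.64, adjusted p = 0.182, edgeR), which passed with DESeq2 (adjusted p = 0.0313) and without Ri replicate 1 (edgeR adjusted p = 0.0244). These were the only 2 of 20 alternatives run in which that difference passed. Against Ga-L the log2 fold change was -4.07 (SE 0.61), with adjusted p = 0.00853 in edgeR. Glyma.17G222300 was better counted and gave the same picture, at 1.4, 0.64 and 0.79 FPKM in Ri, 1.3, 0.84 and 0.9 in NM, 3.2, 5.31 and 4.02 in Ga-H, and 5.71, 11 and 7.26 in Ga-L. The Ri and NM libraries overlapped, and both lay under every Ga-H library. Its log2 fold change in Ri was -2.16 (SE 0.36) against Ga-H, with adjusted p = 0.0738 in edgeR and 5.42e-05 in DESeq2, and it was -3.18 (SE 0.36) against Ga-L, with edgeR adjusted p = 0.00427. The difference from Ga-H passed in 2 of 20 alternatives run.

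The 3 genes with a mean in Ri under that in NM were Glyma.17G222300, Glyma.15G228500 and Glyma.04G060900, named here after their values were seen. Glyma.15G228500 was abundant, at 29.7, 19.7 and 51.7 FPKM in NM, 101, 98.7 and 84.8 in Ga-H, 110, 181 and 175 in Ga-L, and 28.2, 11.1 and 36 in Ri, so its Ri and NM libraries overlapped. Glyma.04G060900 had 5.06, 4.44 and 5.9 FPKM in NM and 6.55, 2.25 and 2.6 in Ri, beside 11.4, 11 and 8.91 for Ga-H and 21.5, 16.8 and 15.9 for Ga-L, with Ri replicate 1 over NM and the others under it. It was the single gene called lower than NM without Ri replicate 1, by 1.13 on the log2 scale (adjusted p = 0.0019, edgeR). With all libraries its log2 fold change was -0.44 (SE 0.34), with adjusted p = 0.405 in the same edgeR test. In all, 15 of the 150 genes had every Ri library under the lowest Ga-H library and 17 had every Ri library over the highest, which is 10% and 11.3%, against 6.39% and 6.14% of all genes with at least 2 FPKM in Ga-L.

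How far the second step rests on the libraries that chose it was measured by repeating the choice without 1 Ga-H and 1 Ga-L library, in 9 combinations, and reading the 150 genes in that pair. The left-out Ga-L library was over the left-out Ga-H library for between 117 and 144 of the 150 genes (78% to 96%), and for 40.2% to 46.8% of all genes with at least 2 FPKM in Ga-L. The size of the step depended on which Ga-L library was left out. Its median log2 value was 0.81, 0.83 and 1.05 for Ga-L replicate 1, against 0.88, 0.79 and 0.75 in the libraries that had made those choices. For replicate 2 it was 0.68, 0.70 and 0.87, against 0.95, 0.90 and 0.84. For replicate 3 it was only 0.25, 0.39 and 0.44, against 1.12, 1.05 and 1.01. Between 86 and 116 of the genes chosen this way were among the 150 described here.

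**Figure D5:**
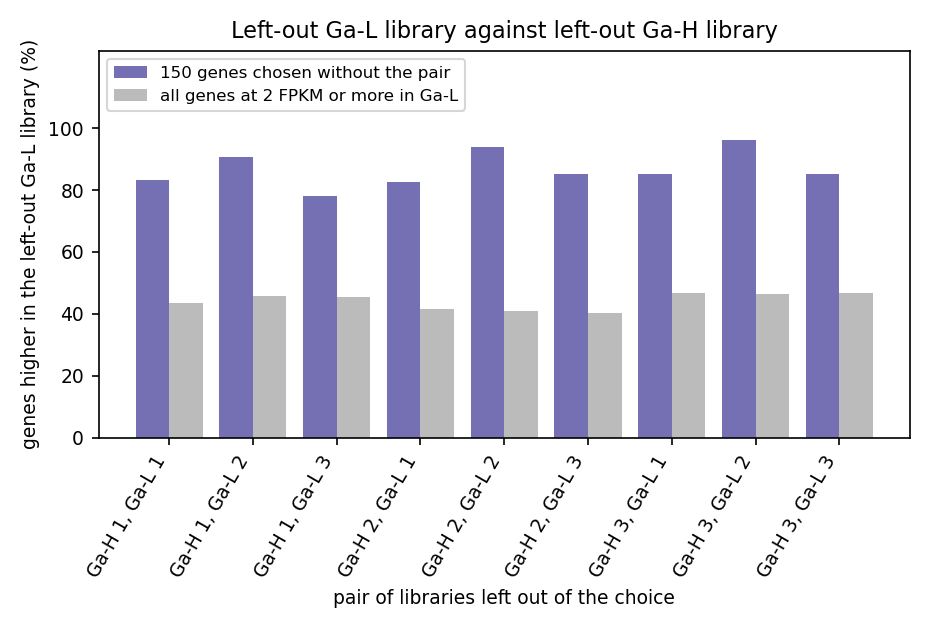
For each pair of left-out libraries, bars give the percent of genes with a higher FPKM in the left-out Ga-L than in the left-out Ga-H library, for the 150 genes chosen without the pair and for all genes with at least 2 FPKM in the Ga-L libraries used. The former lie between 78% and 96% and the latter between 40.2% and 46.8%.

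The Ga-L libraries also differed on the 150 genes themselves, where replicate 1 was the highest of the group for 121 and replicate 3 the lowest for 129. Over all genes at that level these shares were 41.4% and 34.8%, beside 80.7% and 86% here. In the test of Ga-L against Ga-H, the contrast the rule used, 6 of the genes tested were called higher and 0 lower by edgeR, where 0.465% and 0.374% of all genes were. The first count was 59 with DESeq2, 95 in a fit of these groups alone and 87 without Ri replicate 1, where 2.43%, 3.84% and 3.42% of all genes were called higher. It was 0 with the replicate number as a block and also without any single Ga-H library, either of the Ga-L libraries 2 and 3, or NM library 3, and it was 16 without Ri replicate 2. In the comparisons with NM, also used by the rule, 129 of the genes tested were called higher in Ga-H, where 6.25% of all genes were higher and 1.87% lower. In Ga-L every gene tested was called higher than in NM, where 8.78% of all genes were higher and 4.86% lower.

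The genes were spread over the genome. Their IDs name all 20 chromosomes, with 4 to 13 genes on each, and the highest number, 13, on each of chromosomes 8 and 19. Those hold 8.67% of the 150 each, against 6.90% and 4.59% of all genes with at least 2 FPKM in Ga-L. Only 4 pairs were next to each other in ID order, on chromosomes 13, 15, 18 and 20. No chromosome held 3 or more genes in a row. Near-identical neighbours can share reads in estimated counts, and this was not tested for the pairs.

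Genes beside the chosen ones did not make the step on the median. Of the other genes next to a member, 168 had at least 2 FPKM in Ga-L, and their median log2 ratio of Ga-L to Ga-H was -0.02, against -0.05 for all genes at that level. The median transcript length of the 150 was 1550 bases, against 1714 for all genes at that level and 1802 for the 182 with a smaller second step. The median number of transcripts listed per gene was 1 in each of these sets.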

How the data were processed

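For each of the 12 libraries, 1 deposited table gives every gene its length, expected count and FPKM, per the file headers. The authors' expected counts are estimates that can divide a read among similar genes, and the deposited FPKM values are already scaled to length and library size. Bowtie2, HISAT and RSEM were used, per the submitters' processing notes. Versions, roles, genome build and strand handling are not stated in the labels or headers, and the IDs carry the tag Wm82.a2.v1. Genes missing from a table were set to 0. Of 49551 IDs, 0 matched the 59048 rows of a RefSeq table of assembly Glycine_max_v4.0, so the planned lists by name were not used.

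Genes were chosen on FPKM. Expected counts were rounded and tested in R 4.3.3 with edgeR 4.0.16: default filter by group, TMM scaling, robust quasi-likelihood fit of all 12 libraries with 1 mean per group and 8 residual degrees of freedom, and Benjamini-Hochberg adjustment over 36323 genes at 0.05. The estimated biological coefficient of variation was 22.4%. The SE of an edgeR log2 fold change was derived from its test, as the absolute fold change divided by the square root of the F statistic. Alternatives used RLE or upper quartile scaling, no filter, DESeq2 1.42.0, limma 3.58.1 on log2(FPKM + 1) or log2(FPKM + 0.1), a replicate block, the compared groups alone, TMM-scaled FPKM, other floors and each library left out. The genes and lists were chosen with earlier results of these data known. The rule named genes first in rank by the Ga-L to Ga-H ratio, those highest in Ga-L, and those at either end of the Ri to Ga-H ratio; since 0 IDs had an annotation, it allowed at most 2 IDs per direction and comparison. Exceptions are stated.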

Additional observations from a re-analysis of the deposited data

How the results depend on the processing

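The values compared were counts of genes called, places of Ri, numbers of genes meeting the rule and shares in left-out libraries. Of these, 81 of 102 values under alternatives lay within 1.5 times the main value or within the spread. The number of genes called in Ri against NM held under every alternative run, from 110 to 124 with 1 library left out and 94 with only those groups fitted. For Ri against Ga-H the count of 0 became 11 with DESeq2 and ranged from 0 to 35 with 1 library left out, the highest without Ri replicate 1. For Ri against Ga-L the 53 became 0 with only those groups fitted and ranged from 12 to 110 with 1 library left out. For Ga-L against Ga-H the 6 became 10 without the low-count filter, 59 with DESeq2, 95 with only those groups fitted and 0 with the replicate block, and ranged from 0 to 87 with 1 library left out. The cause of these shifts was not tested. The 332 genes that met the rule became 412 on TMM-scaled FPKM, and ranged from 318 to 560 with 1 library left out, the highest without Ga-L replicate 3. Mean Ri under mean Ga-H held for 76 to 84 genes of 150 under other scalings or floors, for 200 of all 332 genes meeting the rule, and for 69 to 107 genes without 1 Ri library. Among named genes, the log2 fold change of Glyma.15G228500 in Ri against NM ranged from -0.78 to 0.0072 with 1 library left out, and changed sign without NM replicate 3. That of Glyma.17G222300 ranged from -0.61 to 0.057, and changed sign without NM replicate 1 and without Ri replicate 2, to 0.03 and 0.057. None of these values passed the threshold. Ri against Ga-L passed in 1 of 20 alternatives for Glyma.06G074100 and in 1 of 20 for Glyma.01G218000. So did Glyma.08G330100 against Ga-H and Glyma.04G060900 against NM, in 1 of 20 each.

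The labels do not say that replicate numbers mark a pairing. Same-numbered libraries of different groups correlated in their deviations from the group means at -0.40 to 0.23, over 0.1 in 6 of 18 pairs, and 5 of 12 libraries matched their own number best. With the replicate number as a block, 120 genes were called in Ri against NM, 0 in Ri against Ga-H and 59 in Ri against Ga-L. Genes with few reads limit what can be seen: the median gene of the 150 had 18.5 to 26 counts in an NM library and 95.6 to 254 in a colonized one.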
